A study of Mus musculus with 4 samples.

Results

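Antiviral interferon-stimulated genes are the genes that cells switch on after interferon to detect and block viruses. The 40 genes described here were taken by name from 24235 named mouse genes in the deposited tables, and all 40 were found. They were followed in 4 messenger RNA libraries of macrophages grown from mouse bone marrow with M-CSF, the growth factor that drives macrophage differentiation. All libraries came from C57BL/6 mice aged 7 weeks. Cells of wild type (WT) mice and of mice labelled Sema6D-/-, a label for loss of the membrane semaphorin Sema6D, were each profiled without and with a stimulus, which gave 4 groups. The stimulus was lipopolysaccharide (LPS) from bacteria, at 100 ng/ml for 4 h. The study asked how Sema6D acts in macrophage polarization. The construct of the Sema6D-/- allele, whether the mice were littermates, and how many mice gave cells to a library are not given in the sources used here.

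LPS acts on the receptor TLR4, and through the adaptor TRIF and the factor IRF3 it switches on the gene for interferon beta. Secreted interferon beta binds its receptor on the same and on neighbouring cells, and the kinases JAK1 and TYK2 then activate a complex that contains STAT2 and IRF9. That complex binds the interferon-stimulated response element in the promoters of antiviral genes. Macrophages also keep part of this programme on at rest through a low, constant interferon signal.

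Each group was 1 library, so differences could not be checked against replicates and describe these libraries alone. Levels are FPKM, which are fragments divided by transcript length and by a scale for each library. How that scale was set is not given in the sources used here. Ratios are log2 ratios of FPKM + 1, which understates ratios of low genes. A gene is counted as higher or lower at a difference of 2-fold or more, which is 1 on the log2 scale. It enters a comparison at 1 FPKM in at least 1 of its libraries. Shares over all genes thus include low genes and microRNA genes. Each of the 40 genes measured at least 4.53 FPKM in every library, so the shares compare sets with unlike lowest levels. Where 4 FPKM values stand in a row, their order is WT without LPS, labelled Sema6D-/- without LPS, WT with LPS, and labelled Sema6D-/- with LPS. In bulk RNA such as this, fewer cells of a type and less RNA per cell cannot be told apart. The LPS ratio and the genotype ratio without LPS share a library, as do the other neighbouring comparisons, so they are given side by side and are not independent.

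Estimated depth was 17.2 to 23.4 M fragments per library. In WT without LPS, 1 FPKM stood for an estimated 30.5 fragments per kb, at a depth of 23.4 M. In the library labelled Sema6D-/- with LPS it stood for 16.4, at 21.3 M, so the deposited scale did not follow depth alone. Sema6d itself measured 0.304 and 0.219 FPKM in WT without and with LPS. It measured 0.563 and 0.592 FPKM in libraries labelled Sema6D-/- without and with LPS. All 4 values were below 1 FPKM and rest on an estimated 56.2 and 20.2 fragments in WT and 77.6 and 59.0 in those labelled Sema6D-/-. The targeted gene was thus not lower in those libraries, and every genotype direction below rests on the labels. Whether the allele leaves a transcript was not tested. All 8 macrophage genes were present in every library, from Mertk at 11.7 to 61.3 FPKM to Lyz2 at 14435 to 19821 FPKM. They were not alike in the genotypes: Itgam had ratios of -0.84 and -1.02 without and with LPS, Mertk 0.95 and 1.97, and Cd14 1.13 and 1.05, and the part of this in the genotype differences was not tested. Xist measured 22.3 and 21.4 FPKM in WT and at most 0.0333 FPKM in libraries labelled Sema6D-/-. The Y-linked gene Eif2s3y measured at most 0.0207 FPKM in WT and at least 33.5 FPKM in libraries labelled Sema6D-/-, so genotype and sex cannot be told apart. The summed level of 8 neutrophil genes was 828 and 1272 FPKM in WT without and with LPS, against 234 and 360 FPKM in those labelled Sema6D-/-. All 8 were lower without LPS and 7 of 8 were lower with LPS, and their part in the genotype differences was not tested. Of 6 conventional dendritic cell genes, only Itgax and Xcr1 reached 1 FPKM in any library. Itgax measured 0.178 and 0.349 FPKM in WT against 6.86 and 16.3 FPKM in those labelled Sema6D-/-. Xcr1 had genotype ratios of 0.69 without LPS and -0.01 with LPS. Flt3 and Zbtb46 measured at most 0.313 FPKM in any library, and Clec9a and Dpp4 stayed below 1 FPKM. The 6 plasmacytoid dendritic cell genes summed to 15.4, 16.2, 33.2 and 57.9 FPKM in the 4 libraries, mostly Tcf4, with Siglech at most 0.896 FPKM and Klk1 at 0 throughout.

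Total FPKM was not equal between libraries, which matters for every ratio. It was 370066 in WT without LPS, 371243 in the library labelled Sema6D-/- without LPS, 534692 in WT with LPS and 628278 in the library labelled Sema6D-/- with LPS. As deposited, 1114 genes were higher and 503 lower with LPS in WT. With each library brought to a common total, 713 were higher and 1497 lower, and the median of all genes moved from -0.00 to -0.46. In the libraries labelled Sema6D-/-, 1453 were higher and 916 lower as deposited, against 745 and 2995 with a common total, where the median of all genes was -0.65. For genotype with LPS the split of 311 higher and 320 lower became 188 and 410, with a median of -0.15. For the difference of the LPS responses, 195 larger and 134 smaller became 123 and 223, with a median of -0.19. The genotype comparison without LPS hardly moved, with 259 higher and 226 lower as deposited and 278 and 251 with a common total. Ratios below are as deposited, and values with a common total are given beside the calls of the 40 genes and the list counts that they change.

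The promoter sequences are shown for the genes at the ends of the comparisons below. Xaf1 and Cmpk2 had the 2 highest genotype ratios without LPS, Trim25 and Ifi44 the 2 lowest, and Cmpk2, Rsad2 and Ifit1 the 3 highest LPS ratios in WT. Isg15 and Ifit3 were added after their motif matches were seen. Each is the 250 bases before the annotated start of the gene, on the gene's own strand, from RefSeq on GRCm38.p6. Capitals mark the core of the interferon-stimulated response element, GAAANNGAAA on either strand.
Ifit1: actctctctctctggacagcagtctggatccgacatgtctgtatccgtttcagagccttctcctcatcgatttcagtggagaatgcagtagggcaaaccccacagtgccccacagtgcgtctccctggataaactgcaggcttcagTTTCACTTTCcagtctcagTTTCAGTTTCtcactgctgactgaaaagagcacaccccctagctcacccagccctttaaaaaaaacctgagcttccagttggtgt
Ifit3: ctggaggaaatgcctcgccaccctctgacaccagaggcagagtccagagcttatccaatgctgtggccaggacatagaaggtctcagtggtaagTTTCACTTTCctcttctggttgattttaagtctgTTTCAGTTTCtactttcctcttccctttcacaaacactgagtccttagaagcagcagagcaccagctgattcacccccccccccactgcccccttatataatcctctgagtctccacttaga
Isg15: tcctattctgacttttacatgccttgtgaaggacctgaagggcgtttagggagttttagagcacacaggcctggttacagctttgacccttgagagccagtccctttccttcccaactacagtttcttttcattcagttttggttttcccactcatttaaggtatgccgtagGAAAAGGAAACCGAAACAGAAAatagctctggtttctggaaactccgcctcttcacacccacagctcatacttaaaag
Rsad2: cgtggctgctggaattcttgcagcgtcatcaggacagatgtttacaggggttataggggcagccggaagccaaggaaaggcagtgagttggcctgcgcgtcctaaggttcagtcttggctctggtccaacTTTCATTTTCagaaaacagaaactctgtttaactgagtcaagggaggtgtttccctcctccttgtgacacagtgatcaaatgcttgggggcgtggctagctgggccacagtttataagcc
Cmpk2: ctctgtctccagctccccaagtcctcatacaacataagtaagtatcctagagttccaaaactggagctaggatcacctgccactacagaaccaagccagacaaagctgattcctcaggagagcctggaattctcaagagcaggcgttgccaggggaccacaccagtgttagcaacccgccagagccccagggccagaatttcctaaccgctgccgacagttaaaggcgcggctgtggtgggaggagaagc
Xaf1: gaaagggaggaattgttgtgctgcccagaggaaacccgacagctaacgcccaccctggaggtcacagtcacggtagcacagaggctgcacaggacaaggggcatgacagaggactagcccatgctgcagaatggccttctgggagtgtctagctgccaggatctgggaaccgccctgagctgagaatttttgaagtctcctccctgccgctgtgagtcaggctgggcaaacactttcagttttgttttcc
Trim25: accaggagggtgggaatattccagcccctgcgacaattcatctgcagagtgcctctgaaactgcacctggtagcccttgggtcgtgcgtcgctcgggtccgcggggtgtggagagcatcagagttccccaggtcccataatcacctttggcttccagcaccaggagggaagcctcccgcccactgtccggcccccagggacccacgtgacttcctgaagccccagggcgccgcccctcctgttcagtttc
Ifi44: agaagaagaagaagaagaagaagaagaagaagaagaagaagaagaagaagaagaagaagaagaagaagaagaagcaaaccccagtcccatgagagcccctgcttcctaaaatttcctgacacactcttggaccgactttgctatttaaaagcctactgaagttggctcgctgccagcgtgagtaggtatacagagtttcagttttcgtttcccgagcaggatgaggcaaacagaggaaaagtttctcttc

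These windows lie at chr19:34640639-34640888 for Ifit1, chr19:34583279-34583528 for Ifit3, chr12:26468965-26469214 for Cmpk2, chr11:72301379-72301628 for Xaf1 and chr11:88999153-88999402 for Trim25, all on the plus strand. Those of Isg15 (chr4:156200819-156201068), Rsad2 (chr12:26456453-26456702) and Ifi44 (chr3:151749911-151750160) are on the minus strand. The deposited values were made on the build mm9, so these coordinates are those of the sequences and not of the measured reads. Ifit1 held the core at 104 and 85 bases before its start, Ifit3 at 156 and 122, and Rsad2 at 120. Isg15 held 3 overlapping matches, which begin 78, 72 and 66 bases before its start and form 1 run of capitals. The windows of Cmpk2, Xaf1, Trim25 and Ifi44 did not hold these letters, which says nothing about binding there.

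Promoter sequence was at hand for 30 of the 40 genes, in windows of 300 bases that reach 50 bases past the start. The core was found in 13 of 30 (43.3%), against 1079 of 27025 genes (3.99%), counting a gene if any of its annotated starts had a match. The 13 were Ifit1, Ifit3, Rsad2, Bst2, Ifitm3, Isg15, Ifih1, Ddx60, Eif2ak2, Trim21, Trim30a, Slfn5 and Slfn8. The core of the gamma-activated sequence, an element of genes that respond to interferon gamma, was searched as TTCNNNGAA and was found in 7 of 30 (23.3%), against 9.55% of all genes. These were Ifit2, Isg20, Adar, Bst2, Ifitm3, Eif2ak2 and Ifi35. Bst2, Ifitm3 and Eif2ak2 held both cores, and in Bst2 and Ifitm3 the matches of the 2 motifs overlap. A match is a description of the letters and not of a bound site. The promoters of Zbp1, Usp18, Parp14, Ifi27l2a, Rtp4, Mx1, Dhx58, Tor3a, Mx2 and Parp9 were not analysed here.

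Nearly the whole set was higher with LPS, in both genotypes. In WT, 36 of 40 genes were at least 2-fold higher with LPS and 0 were lower, against 10.7% of all 10375 measured genes higher and 4.85% lower. In the libraries labelled Sema6D-/-, 36 of 40 were higher and 0 lower, against 14% and 8.81% of 10398 genes. The median LPS ratio of the set was 2.78 in WT and 2.47 in those labelled Sema6D-/-, and the medians of all genes were -0.00 and 0.01. With a common total, 36 and 32 genes were at least 2-fold higher, and the medians were 2.27 and 1.74. The 4 genes that no longer passed in libraries labelled Sema6D-/- were Trim25 at 0.97, Sp100 at 0.99, Xaf1 at 0.87 and Rtp4 at 0.79. The 40 genes together held 1.03% of all FPKM in WT without LPS and 4.66% with LPS. The shares in libraries labelled Sema6D-/- were 1.56% and 5.54%.

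Before LPS the same genes were mostly higher in the library labelled Sema6D-/-. Without LPS, 12 of 40 were at least 2-fold higher there than in WT and 0 were lower, against 2.51% and 2.19% of 10322 measured genes. Of the 40, 38 had the higher value in that library, against 55.9% of all genes. The median ratio was 0.75, against 0.04 for all genes. With LPS the differences were smaller. Only Xaf1 was at least 2-fold higher with LPS and 0 were lower, against 3.09% and 3.18% of 10078 genes, while 37 of 40 had the higher value, against 55.2% of all genes. The median genotype ratio with LPS was 0.46 as deposited, against 0.04 for all genes, and 0.23 with a common total, where 34 of 40 were above 0. The 12 genes at 2-fold without LPS were Ifit1, Ifit2, Ifit3, Mx1, Rsad2, Cmpk2, Isg20, Isg15, Usp18, Parp14, Xaf1 and Slfn5. Slfn1 and Mx2 lay just under the threshold and just over it with a common total, at 1.00 and 1.01, and the next gene below them was Herc6 at 0.92. The neutrophil and sex-linked genes given above differ between the same libraries.

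**Figure D1:**
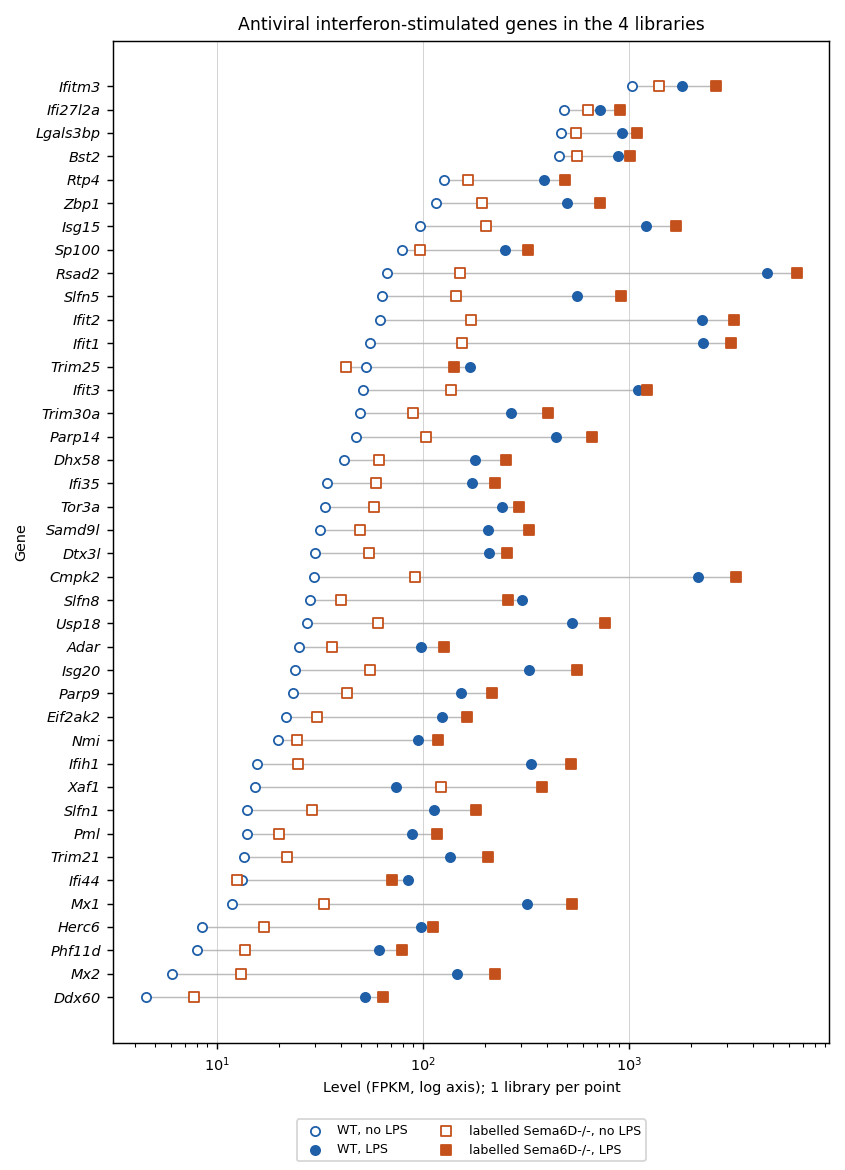
Level of each of the 40 genes in FPKM on a log axis, 1 library per point, with circles for WT, squares for the libraries labelled Sema6D-/-, open symbols without LPS and filled symbols with LPS. Genes are ordered by their level in WT without LPS, from Ifitm3 at 1034 FPKM to Ddx60 at 4.53 FPKM, and in 36 of them the 4 points run in the same order from left to right.

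The plot of levels shows a fixed order of the 4 libraries in most genes. In 36 of 40 the values ran from WT without LPS through labelled Sema6D-/- without LPS and WT with LPS to labelled Sema6D-/- with LPS. The 4 exceptions were Trim25, Xaf1, Slfn8 and Ifi44. In 39 of 40 both values without LPS lay below both values with LPS, and Xaf1 was the exception. With a common total these counts were 31 and 37. The same shares over all genes are not given here, so the order is not shown to be particular to this set. The median level over the set was 30.9, 59.0, 259.9 and 355 FPKM in the 4 libraries. As a share of each gene's WT level with LPS, the level without LPS had a median of 14.0% in WT and of 23.9% in the library labelled Sema6D-/-.

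The IFIT proteins, which bind foreign RNA and block its translation, had some of the widest spans. Ifit1, which recognises RNA caps that lack host methylation, measured 55.6, 155, 2304 and 3128 FPKM. Ifit2, which binds RNA rich in A and U, measured 62.4, 173, 2268 and 3265 FPKM. Ifit3, whose human form stabilises IFIT1, measured 51.3, 138, 1105 and 1234 FPKM. All 3 were low in WT without LPS, higher in the library labelled Sema6D-/- without LPS, and much higher with LPS in both. Their LPS ratios were 5.35, 5.16 and 4.40 in WT and 4.33, 4.23 and 3.15 in those labelled Sema6D-/-. Their genotype ratios without LPS were 1.46, 1.45 and 1.41, and with LPS 0.44, 0.52 and 0.16, so the gap between genotypes was narrower with LPS. The ratio of Ifit3 with LPS turned to -0.07 with a common total. Ifit3 shares 51.2% of its 50-base stretches with its near copy Ifit3b, so its level is uncertain. Ifit3b itself measured 13.7, 31.0, 428 and 403 FPKM.

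The Mx genes encode dynamin-like GTPases that trap viral nucleocapsids. C57BL/6 mice carry defective copies of both, and RefSeq annotates both as transcribed pseudogenes, so these values are transcript levels only. Mx1 measured 11.8, 33.0, 321 and 528 FPKM, with genotype ratios of 1.41 without LPS and 0.72 with LPS. Mx2 measured 6.09, 13.1, 146 and 224 FPKM, with genotype ratios of 1.00, just under the threshold, and 0.62. Both were lowest in WT without LPS and highest in the library labelled Sema6D-/- with LPS.

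Among the enzymes that act on nucleotides or RNA, the neighbouring genes Rsad2 and Cmpk2 on chromosome 12 had the largest LPS ratios of the set in WT. Rsad2, or viperin, makes a nucleotide analogue that stops viral RNA synthesis, and it measured 67.4, 151, 4699.5 and 6564 FPKM. Cmpk2, a mitochondrial nucleotide kinase, measured 29.8, 91.4, 2163 and 3339 FPKM. Their LPS ratios were 6.10 and 6.13 in WT and 5.43 and 5.18 in those labelled Sema6D-/-. Rsad2 was the most abundant of the 40 genes in both libraries with LPS, while Cmpk2 had the second highest genotype ratio without LPS, 1.58, against 1.16 for Rsad2. With LPS these ratios were 0.63 and 0.48. Isg20, an exonuclease that degrades RNA, measured 24.1, 55.3, 329.5 and 562 FPKM, with genotype ratios of 1.17 and 0.77 without and with LPS. Adar, which edits adenosine to inosine in double-stranded RNA, spanned less, with 25.0, 36.2, 98.1 and 127 FPKM. Its genotype ratios of 0.52 and 0.37 stayed below 2-fold.

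Bst2 and Ifitm3 encode membrane proteins that were already abundant without LPS. Bst2, or tetherin, holds budding virus at the cell surface, and it measured 458, 561, 885 and 1017 FPKM. Ifitm3 blocks fusion of incoming virus in endosomes, and it measured 1034, 1407, 1821 and 2655 FPKM. Neither reached 2-fold with LPS, with ratios of 0.95 and 0.82 in WT and 0.86 and 0.92 in those labelled Sema6D-/-. Their genotype ratios were 0.29 and 0.44 without LPS and 0.20 and 0.54 with LPS, and that of Bst2 with LPS turned to -0.03 with a common total. Ifi27l2a, a small interferon-induced membrane protein, and Lgals3bp, a secreted glycoprotein that binds galectins, were at similar levels. Ifi27l2a measured 483, 633, 724 and 908 FPKM, and Lgals3bp measured 468, 554, 925 and 1098 FPKM. These were the 4 genes below 2-fold with LPS in both genotypes, and they were also the 4 most abundant without LPS in WT. With a common total, Ifi27l2a in libraries labelled Sema6D-/- turned from 0.52 to -0.24 with LPS.

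Isg15 encodes a ubiquitin-like protein that is joined to other proteins after interferon. It measured 96.9, 204, 1212 and 1700.2 FPKM. Usp18, which removes ISG15 and damps the interferon receptor, measured 27.4, 60.4, 531 and 767 FPKM. Herc6, the main ligase for ISG15 in mice, measured 8.51, 17.0, 97.7 and 112 FPKM. Isg15 and Usp18 were at least 2-fold higher in the library labelled Sema6D-/- before LPS, at 1.06 and 1.12, and Herc6 missed the threshold at 0.92. With LPS the ratios were 0.49, 0.53 and 0.20, and that of Herc6 turned to -0.03 with a common total. Herc6 shares 23.8% of its 50-base stretches with another annotated transcript, so its level is uncertain. Trim25, a ubiquitin ligase that activates the RNA sensor RIG-I, went the other way, with 52.9, 42.6, 169.9 and 142 FPKM. Its genotype ratios were -0.31 without LPS and -0.26 with LPS, below 2-fold in both states, and its LPS ratios of 1.66 and 1.71 were close in the 2 genotypes.

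The nucleic acid sensors had smaller genotype ratios, none of them at 2-fold. Ifih1, or MDA5, which senses long double-stranded RNA, measured 15.8, 24.7, 337 and 526 FPKM. Its LPS ratios were 4.33 in WT and 4.36 in those labelled Sema6D-/-, and its genotype ratios were 0.62 without LPS and 0.64 with LPS. The genotype ratio of Ifih1 was thus close in size in the 2 states, while those of the 3 IFIT genes were not. Dhx58, or LGP2, a helicase that modulates MDA5 and RIG-I, measured 41.6, 61.2, 179 and 255 FPKM. Ddx60, another helicase, measured 4.53, 7.79, 52.7 and 64.2 FPKM and was the lowest of the 40 genes in every library. Zbp1, which senses nucleic acid in the Z form and can start necroptosis, measured 116, 194, 505 and 729 FPKM. Eif2ak2, or PKR, which stops translation on double-stranded RNA, measured 21.7, 30.8, 124 and 164 FPKM. Across these 5 sensors the genotype ratios ran from 0.49 for Eif2ak2 to 0.73 for Zbp1 without LPS, and from 0.28 for Ddx60 to 0.64 for Ifih1 with LPS.

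Parp9 and Dtx3l act as a pair that joins ADP-ribose and ubiquitin to proteins, and Parp14 is a mono-ADP-ribosyltransferase. The 3 genes lie side by side on chromosome 16. Parp9 measured 23.5, 42.8, 154 and 217 FPKM, and Dtx3l measured 29.98, 55.1, 210.2 and 256 FPKM. The annotations of Parp9 and Dtx3l overlap, so their reads cannot be told apart where the counting did not use strand, which is not given in the sources used here. Parp14 measured 47.5, 104, 446 and 662 FPKM. Parp14 was at least 2-fold higher in the library labelled Sema6D-/- before LPS, at 1.11, while Dtx3l and Parp9 were at 0.86 and 0.84. With LPS the 3 ratios were 0.57, 0.28 and 0.49.

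Trim21, a cytosolic antibody receptor and ubiquitin ligase, measured 13.5, 22.0, 136 and 208 FPKM. Trim30a, a mouse TRIM protein that restrains Toll-like receptor signalling, measured 49.4, 89.5, 269.6 and 404 FPKM. Pml, which builds nuclear bodies, measured 14.0, 20.03, 88.8 and 118 FPKM. All 3 had their values in the order of most of the set, lowest in WT without LPS and highest in the library labelled Sema6D-/- with LPS. Sp100, another nuclear body protein, measured 79.2, 96.6, 250.1 and 326 FPKM. The genotype ratios of these 4 genes ran from 0.28 for Sp100 to 0.85 for Trim30a without LPS, and from 0.38 for Sp100 to 0.61 for Trim21 with LPS. Nmi and Ifi35 encode proteins that bind each other and modulate innate immune signalling. Nmi measured 19.9, 24.5, 94.6 and 119 FPKM, and Ifi35 measured 34.3, 59.7, 174 and 224 FPKM. Their genotype ratios without LPS were 0.29 and 0.78, and with LPS 0.33 and 0.37.

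Xaf1 stood apart from the other 39 genes in its genotype ratio. It encodes an interferon-induced factor that promotes apoptosis by opposing XIAP. It measured 15.3 FPKM in WT without LPS, 123 FPKM in the library labelled Sema6D-/- without LPS, 74.1 FPKM in WT with LPS and 381 FPKM in the library labelled Sema6D-/- with LPS. Its level without LPS in the library labelled Sema6D-/- was thus 166% of the WT level with LPS. The genotype ratios were 2.93 without LPS and 2.35 with LPS, and the LPS ratios were 2.203 in WT and 1.62 in those labelled Sema6D-/-. With a common total the second of these was 0.87. Xaf1 has 2 transcripts in the tables. With the first alone, which had the higher mean, the genotype ratios were 2.03 and 1.78. The first measured 13.7, 58.9, 66.4 and 230.8 FPKM, and the second measured 1.64, 64.1, 7.65 and 151 FPKM. In WT the second was far below the first, while in the library labelled Sema6D-/- without LPS it was slightly above it.

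The Schlafen family includes regulators of immune cell growth and of virus replication, and the 3 genes listed lie on chromosome 11. Slfn5 measured 63.5, 145, 561 and 918 FPKM and was at least 2-fold higher in the library labelled Sema6D-/- before LPS, at 1.17. Slfn1 measured 14.0, 29.0, 114 and 182 FPKM, with a genotype ratio of 1.00 without LPS, just under the threshold. Slfn8 measured 28.4, 40.2, 303 and 261 FPKM. It was higher without LPS and lower with LPS in the library labelled Sema6D-/-, at 0.48 and -0.22, both below 2-fold. Slfn8 shares 15.0% of its 50-base stretches with other transcripts, mostly the pseudogene Slfn10-ps, so its level is uncertain. Samd9l, an antiviral and growth-restricting protein, measured 31.8, 49.5, 207 and 328 FPKM, with genotype ratios of 0.62 and 0.66.

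Of the remaining interferon-induced genes, Ifi44 was the only one with a lower value in libraries labelled Sema6D-/- in both states. Ifi44, which restricts some viruses, measured 13.3, 12.5, 84.7 and 70.6 FPKM. Its genotype ratio without LPS was -0.08, and its counting interval held 0. Rtp4, a receptor chaperone that also limits RNA viruses, measured 127, 167, 388 and 489 FPKM. Phf11d, a protein with a PHD finger, measured 8.02, 13.7, 61.6 and 79.5 FPKM, and shares 13.9% of its 50-base stretches with other transcripts, mostly Phf11c. Tor3a, a torsin ATPase of the endoplasmic reticulum, measured 33.6, 58.2, 243 and 292 FPKM. The genotype ratios of these 3 were 0.39, 0.70 and 0.78 without LPS and 0.33, 0.36 and 0.27 with LPS, in the order of the set as a whole.

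**Figure D2:**
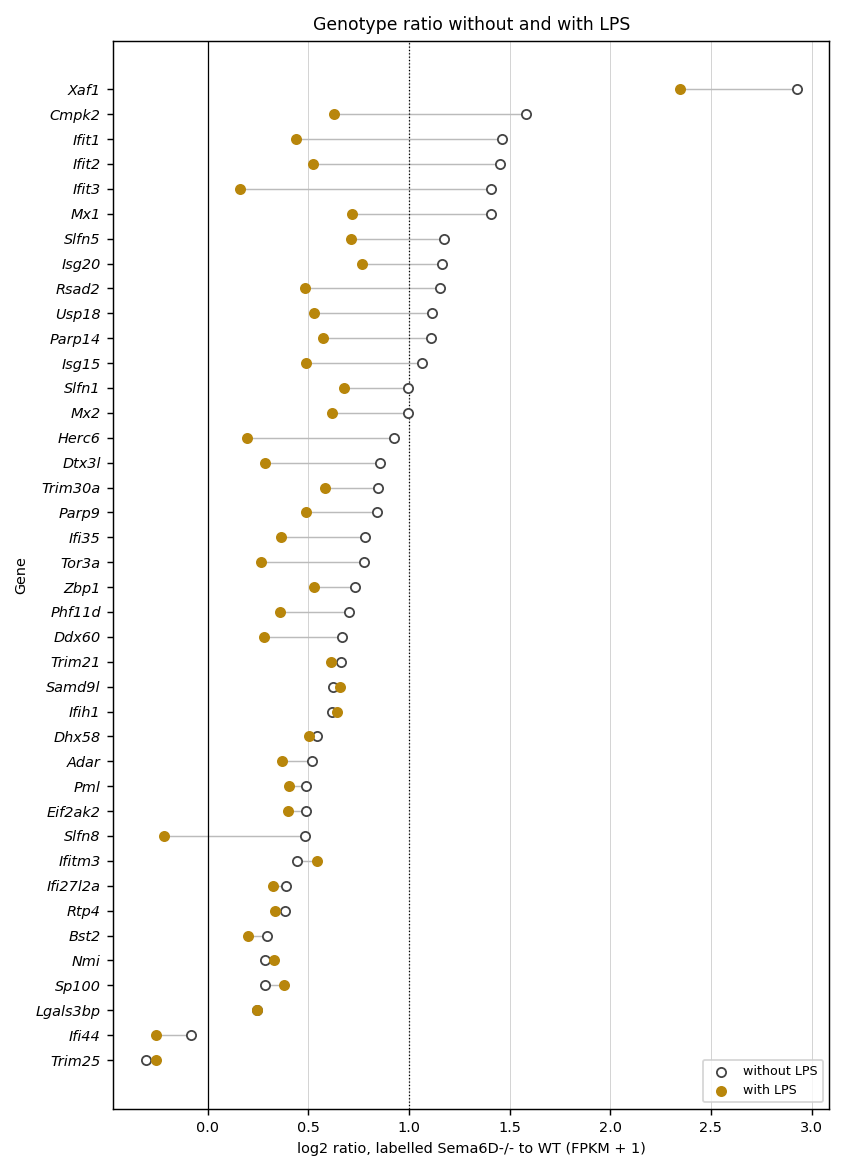
Genotype ratio of each gene, as log2 of labelled Sema6D-/- over WT (FPKM + 1), open circles without LPS and filled circles with LPS, with a dotted line at 2-fold. Without LPS 12 genes lie at or beyond the line and with LPS Xaf1 alone does, and the filled circle lies to the left of the open one in 33 of 40 genes.

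The plot of genotype ratios shows that the gap between genotypes was narrower with LPS in most genes. The size of the ratio, whatever its sign, was smaller with LPS in 33 of 40 genes as deposited. It was smaller in 38 of 40 with a common total, a scaling that lowers the median of all genes with LPS to -0.15. The same share over all genes is not given here, so the narrowing is not shown to be particular to this set. The drop was largest in Ifit3, from 1.41 to 0.16, and in Ifit1, from 1.46 to 0.44. The gap was wider with LPS, by at most 0.10, in Ifitm3, Sp100, Nmi, Samd9l, Ifih1 and Lgals3bp, and in Ifi44 it went from -0.08 to -0.26. It was wider with a common total in Ifi44, from -0.09 to -0.49, and in Trim25, from -0.31 to -0.49. Counting error alone was small at these levels, with at least 414 estimated fragments behind each value. The 95% exact counting interval of the genotype ratio without LPS lay above 0 in 38 genes and below 0 in Trim25, and with LPS it lay above 0 in 37 and below 0 in 3. These intervals cover counting error only and say nothing of variation between mice or cultures.

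The difference of the LPS responses is the LPS ratio in libraries labelled Sema6D-/- minus that in WT. It is the same number as the genotype ratio with LPS minus that without, so it adds no separate evidence. By the 2-fold rule, 0 of 40 had a larger response in libraries labelled Sema6D-/- and 2 had a smaller one, Ifit3 at -1.25 and Ifit1 at -1.02, against 1.83% and 1.25% of 10680 genes. The response was larger in any amount in 7 of 40, against 49.3% of all genes, and the median difference was -0.35, against -0.01 for all genes. With a common total it was larger in 0 of 40, the median was -0.58, and Ifit2 and Cmpk2 also passed 2-fold at -1.16 and -1.19.

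**Figure D3:**
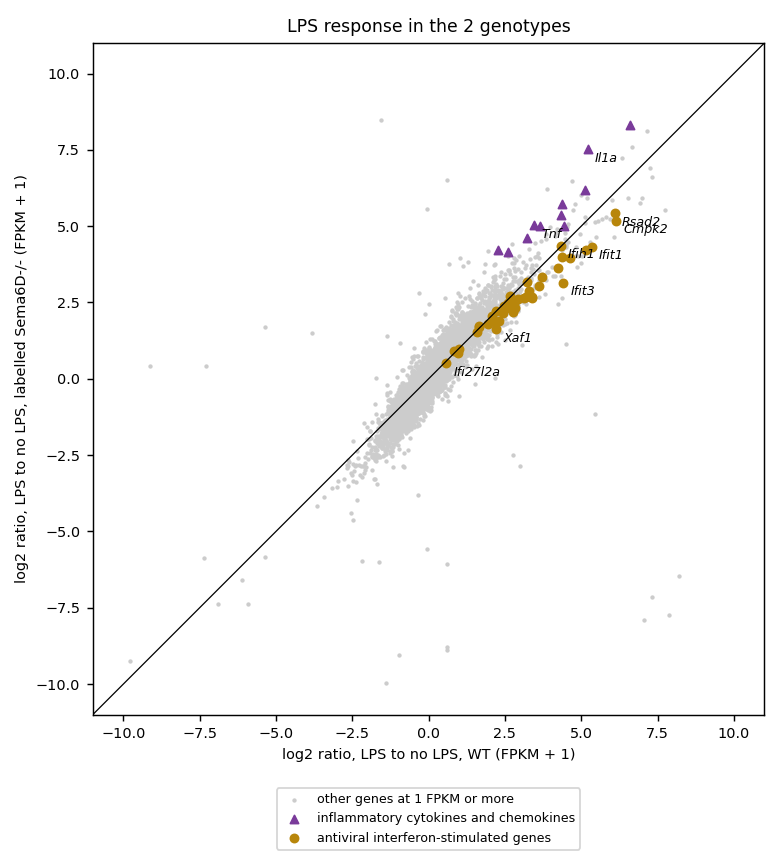
Log2 LPS ratio (FPKM + 1) in WT on the horizontal axis and in libraries labelled Sema6D-/- on the vertical axis, 1 point per gene, with the line of equal response. The 40 antiviral genes lie near or below the line, with a median of 2.78 in WT and 2.47 in those labelled Sema6D-/-, while the 11 inflammatory cytokines and chemokines measured in both genotypes lie above it. Without the added 1 FPKM, Il12b would lie below the line by 0.97 and Il1a above it by 0.24.

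As an increase in FPKM, the response to LPS was the larger in libraries labelled Sema6D-/-. The increase of Ifit1 was 2248 FPKM in WT and 2973 FPKM in those labelled Sema6D-/-, and that of Rsad2 was 4632 and 6413 FPKM. Such a larger increase was found in 37 of 40 genes, against 53.7% of 10680 measured genes, with Trim25, Slfn8 and Ifi44 as the exceptions. In 31 of these genes the increase in FPKM was larger while the log2 response was smaller. The median ratio of the increases was 1.34, from 0.803 in Slfn8 to 4.40 in Xaf1. This count depends on how the libraries are scaled. With a common total the increase was larger in 24 of 40 genes and the median ratio was 1.03.

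**Figure D4:**
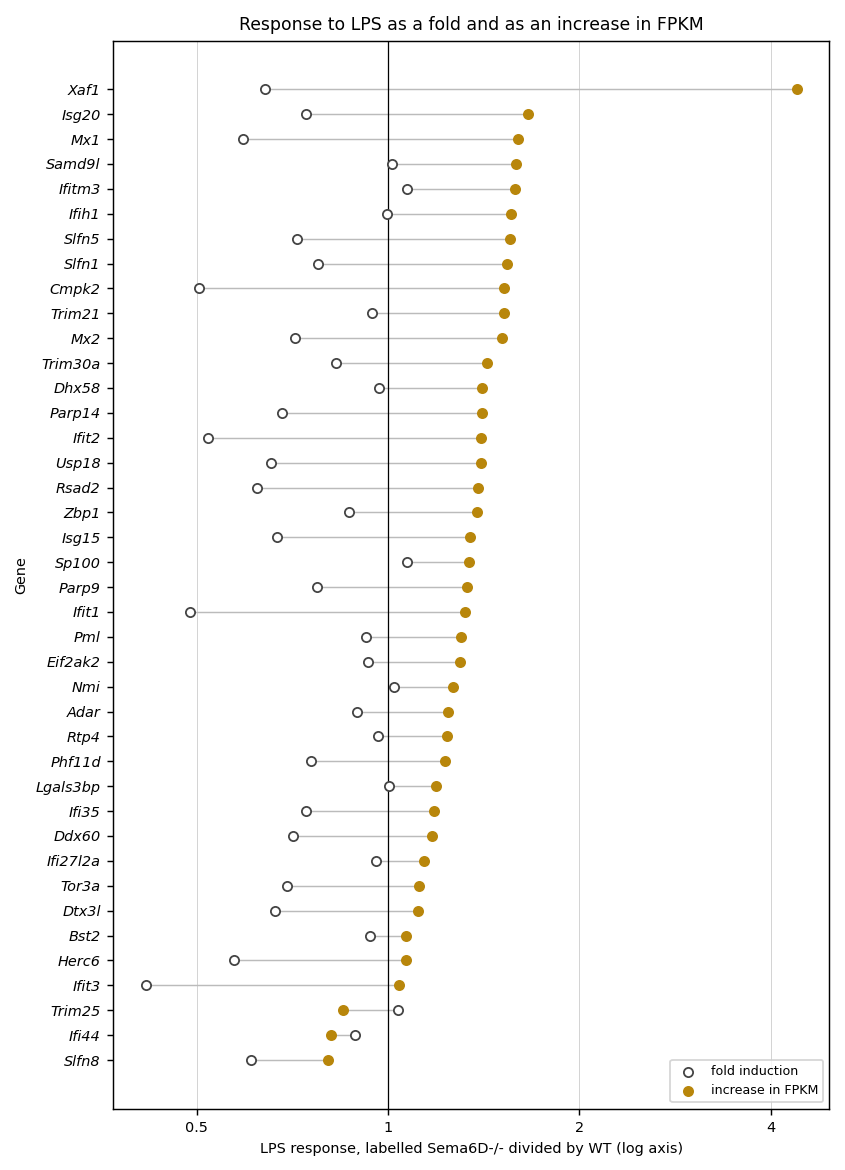
Response to LPS in libraries labelled Sema6D-/- divided by that in WT, on a log axis, as a ratio of fold inductions (open circles) and as a ratio of increases in FPKM (filled circles). As deposited, 37 of 40 filled circles lie to the right of 1, and the open circle is to the left of 1 in most genes.

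The part of the interferon pathway in the values of the 40 genes was not tested. Its genes were read from a list of 35, of which 28 were measured. Of these, 12 passed 2-fold upward with LPS in WT and 14 in those labelled Sema6D-/-, against 10.7% and 14% of all genes, and 0 were lower in either. The count with a common total was 8 upward in each genotype, and in those labelled Sema6D-/- Irf3, Traf3 and Ptpn6 were at least 2-fold lower, with Irf3 at -1.24. Ifnb1, which encodes interferon beta, measured 0.229 and 0.394 FPKM without LPS in WT and in the library labelled Sema6D-/-. With LPS it measured 21.2 and 37.3 FPKM, a genotype ratio of 0.78. Its LPS ratios were 4.18 in WT and 4.78 in those labelled Sema6D-/-. That gap comes with the added 1 FPKM, since without it the ratios were 6.54 and 6.56, a difference of 0.03. Without LPS its values rest on few fragments, estimated at 3.90 and 4.75. The other listed interferon genes, Ifna1, Ifna2, Ifna4, Ifna5, Ifnk, Ifnz and Ifng, measured at most 0.410 FPKM in any library.

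The receptor subunits were present in every library. Ifnar1, a subunit of the receptor for interferon beta, measured 24.7, 44.1, 54.6 and 61.6 FPKM. Its partner Ifnar2 measured 79.9, 88.6, 106 and 146 FPKM. The interferon gamma receptor subunit Ifngr1 measured 58.3, 58.5, 48.4 and 50.8 FPKM, and Ifngr2 measured 90.5, 139.7, 96.4 and 123 FPKM. None of the 4 differed by 2-fold between genotypes. The signalling gene Stat2 followed the order of the antiviral genes, with 37.4, 75.9, 249.8 and 277 FPKM. It just passed 2-fold without LPS in the library labelled Sema6D-/-, at 1.00, and was at 0.15 with LPS. Irf9, the DNA-binding subunit of the complex, measured 34.1, 38.5, 68.8 and 77.4 FPKM, with a genotype ratio of 0.17 in both states. Irf7, which amplifies interferon production, measured 227, 404, 949 and 1427 FPKM, with genotype ratios of 0.83 and 0.59.

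Over the whole pathway list, 3 of 27 measured genes were at least 2-fold higher in the library labelled Sema6D-/- before LPS, namely Stat2, Irf1 and Cd14, and 0 were lower, against 2.51% and 2.19% of all genes. With LPS, Cd14 alone was higher among 28, at 1.05, and 0 were lower. Cd14 was at 0.82 with a common total, so 0 of 28 passed. Cd14, which hands LPS to its receptor, had the highest genotype ratio of the list without LPS, 1.13, and Irf1 the highest without the added 1 FPKM, 1.15. Tlr4, the receptor itself, had the lowest in both states, at -0.67 and -0.54, below 2-fold. The feedback inhibitor Socs1 had the highest LPS ratio, 6.01 in WT and 5.86 in those labelled Sema6D-/-, and Irf3 the lowest, -0.39 and -0.54. Without the added 1 FPKM the highest was Ifnb1. For the difference of the responses, 0 of 28 passed 2-fold in either direction, and the values ran from -0.85 for Stat2 to 0.60 for Ifnb1. Stat2 passed 2-fold with a common total, at -1.08. Without the added 1 FPKM the highest was Irf8 at 0.55, and Ifnb1 was at 0.03.

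**Figure D5:**
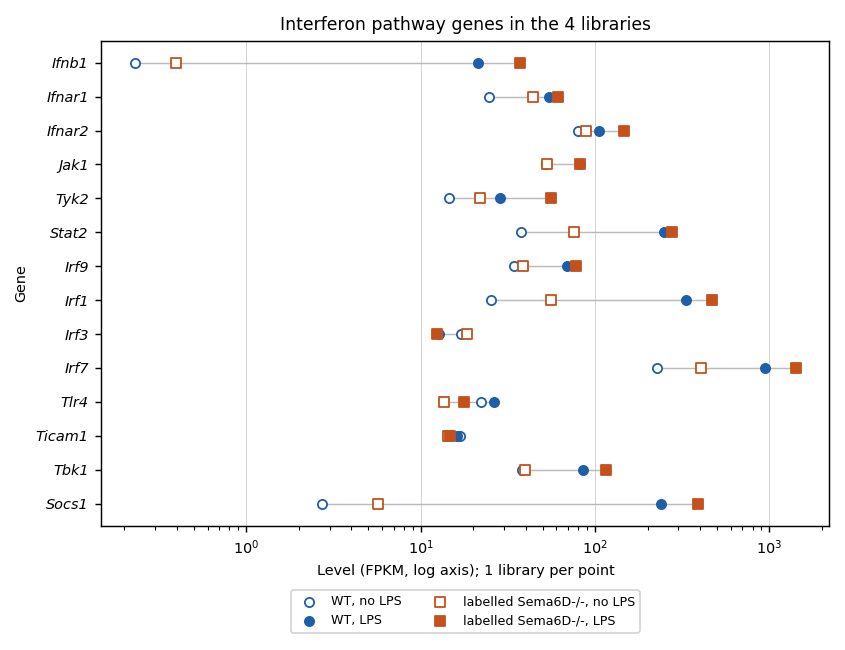
Level of interferon pathway genes in FPKM on a log axis, 1 library per point, with circles for WT, squares for the libraries labelled Sema6D-/-, open symbols without LPS and filled symbols with LPS. Ifnb1 measured at most 0.394 FPKM without LPS, while Stat2, Irf1 and Irf7 are higher in the library labelled Sema6D-/- without LPS.

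Related interferon-induced families were set beside the 40 genes. The 8 oligoadenylate synthetase and RNase L genes make and read a signal for RNA decay. With LPS, 7 were at least 2-fold higher in each genotype, against 10.7% of all genes in WT and 14% in those labelled Sema6D-/-. With a common total the counts were 6 in WT and 2 in those labelled Sema6D-/-. The median genotype ratio of the 8 genes without LPS was 0.40, and Oasl1 alone reached 2-fold, at 1.31, against 2.51% of all genes. Their median difference of responses was -0.44, from -1.01 for Oasl1 to 0.15 for Oas1g, which turned to -0.07 with a common total. The guanylate-binding and immunity-related GTPases, which attack the vacuoles of microbes, had 7 of 11 measured members at least 2-fold higher in the library labelled Sema6D-/- before LPS, against 2.51% of all genes, with a median of 1.08 and the highest value, 2.31, in Gbp5. Without the added 1 FPKM, 9 of 11 were higher before LPS and the median was 1.46. With LPS, 2 of 12 were higher, Gbp3 and Gbp5, against 3.09% of all genes, and the median was 0.63. Gbp3 was at 0.79 with a common total and Gbp5 alone passed, at 1.02. Their median difference of responses was -0.54, and -0.81 without the added 1 FPKM. The difference was below 0 in 12 of 12, while it was above 0 in 49.3% of all genes.

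The inflammatory cytokines and chemokines were set beside the antiviral genes as a second group that LPS switches on. Of 12 measured with LPS, 8 were at least 2-fold higher in the library labelled Sema6D-/-, against 3.09% of all genes, with a median genotype ratio of 2.10 against 0.46 for the 40 antiviral genes. Ccl7 was the only one with a lower value, at -0.92, and it passed 2-fold at -1.15 with a common total. Without LPS, 2 of 11 were higher and 2 lower, against 2.51% and 2.19% of all genes. With a common total 4 were higher and 2 lower. The median difference of responses was 1.46, against -0.35 for the antiviral genes and -0.01 for all genes. It was at least 2-fold larger in 11 of 12, against 1.83% of all genes, in 9 with a common total, and in 9 without the added 1 FPKM. Il1a, Il6, Il12a and Il12b were below 1 FPKM in WT without LPS, and the added constant decides the values of Il1a and Il12b. Il1a was the highest at 2.31 with it and was at 0.24 without it. Il12b was the lowest at 0.56 with it and turned to -0.97 without it. Il6 was at 1.73 with it and 1.36 without it. Il12a was at 2.06 with it and was the highest, at 2.50, without it. Its values without LPS rest on an estimated 1.98 fragments in WT and 1.97 in the library labelled Sema6D-/-. The 4 libraries are the same for both lists, and no test of the difference between the lists was run.

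Position in the genome was also recorded. Of the 40 genes, 8 lie on chromosome 11 and 6 on chromosome 16. Rsad2 and Cmpk2, Parp14 and Dtx3l, Dtx3l and Parp9, and Ifit2 and Ifit3 are next to each other. The members of each pair had genotype ratios above 0 in both states as deposited, as did 37 of all 40 genes, so this is not particular to neighbours. With a common total the ratio of Ifit3 with LPS was -0.07. Of the 40 genes, 35 share less than 10% of their 50-base stretches with any other gene, and 19 share none.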

How the data were processed

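The authors deposited 1 table of FPKM per library, with 34487 RefSeq transcripts each. The submitters' processing notes list Cuffnorm 2.2.1, TopHat2 2.0.13, SAMtools 0.1.19 and Bowtie2 2.2.3, with the mouse build mm9. Their order and options, the annotation and the scaling between libraries are not given in the sources used here. Per the labels' protocols, libraries came from a stranded mRNA kit. The treatment text of every sample names LPS, so titles with "non" were taken to mean no LPS.

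Names came from RefSeq for 34163 transcripts and from GENCODE for 187, and 137 unmatched transcripts were left out. Transcripts were summed per gene. Of the 40 genes, 28 have 1 transcript and 12 have several. Ratios were log2 with 1 FPKM added, for genes that reached 1 FPKM in a library of the comparison. With 1 library per group no test was run. Fragments were estimated from the steps of low FPKM values, of which 72.6 to 74.6% fell within 0.1 of a whole number against 20% by chance, and the 95% exact intervals rest on them. The genes, the lists and the rule for naming were chosen with earlier results of these data known. The rule named all 40 genes, the pathway's ligands, receptors, STAT2, IRF9 and IRF7, and the highest and lowest gene of other lists. Other genes were chosen after their values were seen. A gene of the pathway list is not reported here. The alternatives were another added constant or none, another filter or none, a common total, centring on the median gene, the highest transcript, and genes with 1 transcript. The increases, the order of the libraries and the gap between genotypes under both scalings, and the other lists under both scalings and with no added constant, were added after seeing the data. Python 3.11.15, pandas 2.3.3, numpy 2.4.6, scipy 1.17.1 and matplotlib 3.10.9 were used, and the ratio step was tested on data with known changes.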

Additional observations from a re-analysis of the deposited data

Results flagged for a closer look

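As deposited, Slfn8 was the only one of the 40 genes whose genotype ratio had opposite signs in the 2 states. On the log2 scale, labelled Sema6D-/- over WT, it was 0.48 before LPS and -0.22 after LPS. With 1 library per group this difference was not tested. With a common total Ifit3, Bst2 and Herc6 also had opposite signs, at -0.07, -0.03 and -0.03 with LPS. Slfn8 shares 15.0% of its 50-base stretches with other transcripts, and the part of these in its values was not tested.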

How the results depend on the processing

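No paired analysis was possible because each group was 1 library and the labels give no replicate numbers, and for the same reason no library could be left out. Most counts of genes at 2-fold were within 1.5 times of the reported ones under every alternative run, with these exceptions. For genotype with LPS, the count of higher genes was 0 of 28 among genes with 1 transcript, since Xaf1, the gene behind the reported 1, has several. The count of smaller LPS responses was 4 with a common total against 2 as deposited. The count of larger increases in FPKM in the libraries labelled Sema6D-/- was 24 with a common total against 37. For genotype without LPS the count of higher genes ran from 12 to 15 over the settings that keep 40 genes, with 15 when no constant was added. Centring on the median gene turned no gene in any comparison. With the highest transcript per gene, the difference of responses turned sign in Zbp1, Trim21, Pml and Nmi. With no added constant it turned in Ifih1, and with a common total in all 7 genes above 0. With the highest transcript the genotype ratios of Xaf1 fell from 2.93 to 2.03 without LPS and from 2.35 to 1.78 with LPS. At least 414 estimated fragments stood behind each value of the 40 genes, and the spread between replicates could not be measured.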
